A study of Arabidopsis thaliana with 3 samples.

Results

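The comparison described here set the plastid import mutant ppi1 directly against line 75-IV, a second Arabidopsis thaliana line with an insertion in a gene of the plastid import machinery. Each mutant was measured on 1 array of RNA from whole seedlings, and a wild-type array was kept aside for reference. Of the 3602 genes with a named probe set, 1885 had a signal above a floor of 14.9 on both mutant arrays and are called measured. Where a gene had several probe sets, the brightest by mean log2 signal over both arrays stood for it. With 1 array per group there were no replicates, so no test, standard error or p-value could be had, and a difference between 2 arrays stands for itself alone.

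All groups were in the Col-0 ecotype, at growth stage 1.02, on MS medium with 0.5% sucrose and 16 h of light and 8 h of dark. In ppi1 a T-DNA interrupts the Toc33 gene, and line 75-IV is labelled as carrying one in a Toc75 gene; the wild type has no modification. That label names the locus AT4G09070, while the RefSeq gene table gives TOC75-IV as AT4G09080, and the series title speaks of ppi3, so the line is called 75-IV throughout. The number of plants pooled was left blank by the submitters. No probe set was named for TOC33, for TOC75-IV or for either printed locus, so the insertions could not be checked on these arrays.

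Most plastid proteins are made in the cytosol and enter the organelle through a translocon in the outer envelope. Toc33 is a GTP-binding receptor of that translocon that favours proteins of the photosynthetic apparatus, and plants without it are pale green. Toc75 proteins are the β-barrel proteins of the outer envelope to which the import channel belongs; TOC75-III encodes the main channel protein, and the TOC75-IV product is a shorter relative. In bulk RNA of whole seedlings, fewer cells of a type and less RNA per cell cannot be told apart.

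The 3 arrays had the same trimmed mean signal of 100.2. The label of the ppi1 array gave a background of 61.98 and 504 outlier cells among 285156, against a background of 56.59 and 20 outlier cells for the 75-IV array. The GAPDH control gave a 3'/5' signal ratio of 1.61 in ppi1 and 2.42 in line 75-IV, and 18.7 in wild type. All 9 bacterial spike-in controls had a lower signal in ppi1 than in line 75-IV, by -0.93 to -0.44 on the log2 scale. Scaling to those controls would add 0.66 to every log2 ratio and turn the sign of many function lists' medians, so function lists are described against the median of all measured genes, which such a shift carries along. The part of array quality in any difference was not tested.

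Expression in the 2 mutants was close for most genes. The median log2 ratio of ppi1 over line 75-IV was 0.07 over the 1885 measured genes, and their central 90% lay between -0.86 and 0.84. In ppi1, 53 genes (2.81%) were at least 2-fold higher than in line 75-IV and 65 genes (3.45%) at least 2-fold lower, 118 genes (6.26%) in all. The split moved with the scaling, to 40 higher and 75 lower genes after a loess fit on signal and to 469 higher and 17 lower with spike-in scaling. At a limit of 3-fold there were 8 higher and 19 lower genes in ppi1, and at 5-fold 3 higher and 2 lower. On these same 2 arrays, 102 further probe sets of 92 genes differed from the chosen probe set by a median of 0.32 on the log2 scale. Such differences hold no spread between plants, RNA samples or hybridisations. Of the 118 genes, 8 had another measured probe set, and it lay on the same side in 8 of 8 and was 2-fold apart in 7.

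**Figure D1:**
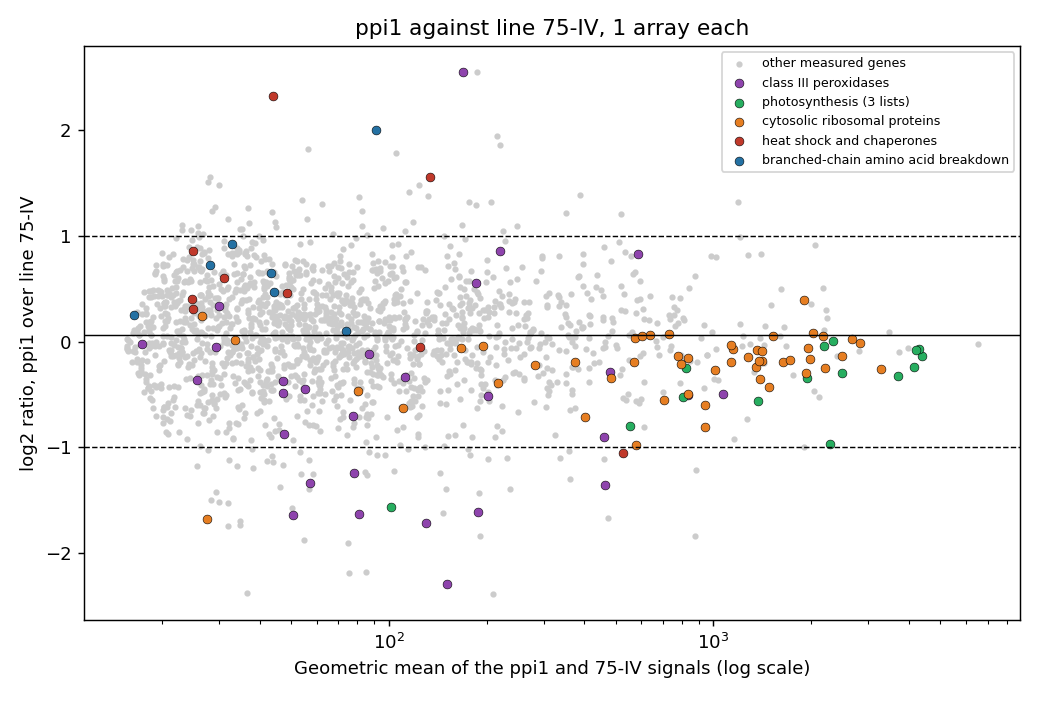
Each point is 1 of the 1885 measured genes, with the geometric mean of its ppi1 and 75-IV signals on a log axis and its log2 ratio (ppi1 over line 75-IV) on the vertical axis; dashed lines mark 2-fold and the solid line the all-gene median of 0.07. Class III peroxidases, purple, reach from -2.29 to 2.55, while the 15 photosynthesis genes, green, all lie below the solid line, most of them at the bright end; with spike-in scaling every point would stand 0.66 higher.

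The gene with the lowest ratio was EXPA8, an expansin, one of the proteins that loosen the wall as cells grow. It had a signal of 91.6 in ppi1, against 479 in line 75-IV and 328 in wild type, a log2 ratio of -2.39. Wild type was thus near line 75-IV, and ppi1 stood apart below both. EXPB1, a β-expansin, read 28.8 in ppi1 and 74.5 in line 75-IV (-1.37). Of the 8 measured genes for expansins and xyloglucan-modifying enzymes, 6 lay below the all-gene median and 2 above it, 2 were at least 2-fold lower in ppi1 (3.45% of all measured genes), and the median of the list was 0.85 below that of all genes on the log2 scale (-0.78 against 0.07). The exceptions at the upper end were EXLA2, an expansin-like gene, at 0.81, and EXPB2 at 0.58.

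Class III peroxidases, secreted heme enzymes that cross-link or loosen wall polymers with hydrogen peroxide, form a large family. Of 46 family members with a named probe set, 28 were measured, 3 were above the floor in ppi1 only, 2 in line 75-IV only and 13 on neither array. Among the 28, 8 were at least 2-fold lower in ppi1 and 1 at least 2-fold higher, where 118 of 1885 measured genes (6.26%) were 2-fold apart in either direction. These counts turned round with spike-in scaling, where 2 of 27 measured peroxidases were at least 2-fold lower and 5 at least 2-fold higher. Of all 1797 genes measured under that scaling, 17 were lower and 469 higher. Against the all-gene median 23 lay below and 5 above, and the family's median was 0.55 below that of all genes.

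AT2G38390 had a signal of 68.4 in ppi1, 335 in line 75-IV and 241 in wild type (log2 ratio -2.29). Its neighbour on the chromosome AT2G38380, with no protein-coding gene between them, read 289 in ppi1, 739 in line 75-IV and 631 in wild type (-1.36). AT4G30170 read 71.9 in ppi1, 237 in line 75-IV and 139.9 in wild type (-1.72). In these genes wild type lay between the mutants and nearer line 75-IV, as it did in 6 of the 8 peroxidases at least 2-fold lower in ppi1. The other 5 of the 8 were AT3G01190, AT2G18150, AT3G21770, AT2G35380 and AT2G18980, with ratios from -1.64 to -1.24. Such a place of wild type was common beyond this family. Among all 65 genes at least 2-fold lower in ppi1, wild type lay between the mutants in 51 and nearer line 75-IV in 51.

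The other direction was led by AT5G39580, which read 410.0 in ppi1, 70.1 in line 75-IV and 198 in wild type, the highest log2 ratio of all measured genes (2.55), and here wild type stood between the mutants. AT1G71695 (0.85) and AT5G64120 (0.82) were next, and for AT5G64120 both mutants were high, with 778 in ppi1 and 439 in line 75-IV, against 116 in wild type. Over the 28 measured peroxidases, wild type lay between the mutants in 16, beside 704 of all 1885 measured genes (37.3%). A wider gap between the mutants encloses the wild-type signal more readily.

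**Figure D2:**
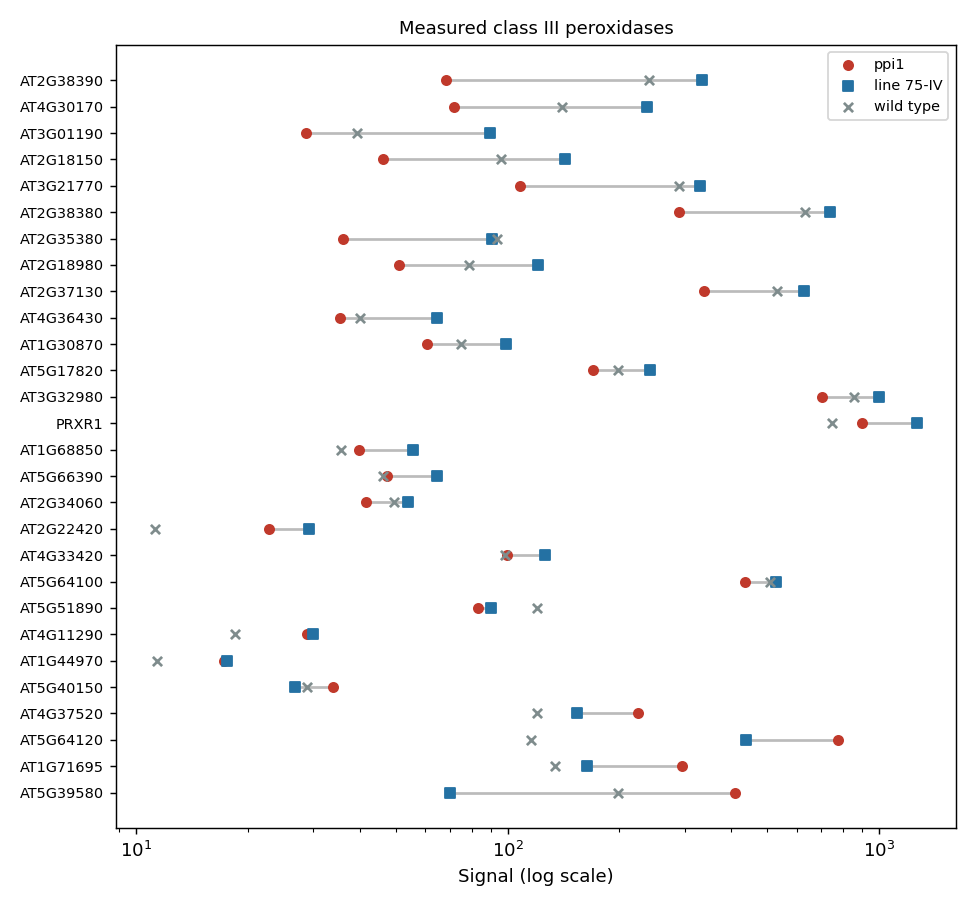
Signals of the 28 measured class III peroxidases on a log axis, 1 gene per row, ordered by the ratio of ppi1 over line 75-IV; circles are ppi1, squares line 75-IV and crosses wild type, 1 array each. The upper rows have ppi1 to the left of both other arrays, and AT5G39580 in the lowest row has ppi1 at 410.0 on the right and line 75-IV at 70.1; with spike-in scaling each circle would move right against its square by 0.66 on the log2 scale.

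Many members of this family are alike in sequence, and 16 of the 28 measured peroxidases, among them 6 of the 8 lower ones, were read by probe sets whose name carries a suffix for possible cross-hybridisation. Values of close relatives are therefore uncertain. With probe sets without a suffix, 12 peroxidases remained, 2 of them at least 2-fold lower and 1 at least 2-fold higher in ppi1, and their median was 0.43 below that of all genes. Many peroxidases of this class are active mainly in roots. Of the 5 genes on a short list of root markers, BGLU28 and BGLU29 were below the floor on all arrays and 3 were measured. BGLU25 stood at 172.0 in ppi1 and 228 in line 75-IV (-0.40), while the jacalin lectins JAL34 (0.35) and JAL31 (0.47) were on the other side. The summed signal of the 3 was 613 in ppi1, 568 in line 75-IV and 585 in wild type. The root β-glucosidase gene BGLU21 is not on this short list, which was drawn by keyword, and so not in that sum. BGLU21 read 265 in ppi1, 845 in line 75-IV and 483 in wild type (-1.67). Its signal differed more between the mutants than that sum did, and in the other direction. The short-list genes and BGLU21 together thus went both ways. The share of root in the seedlings as a source of the peroxidase difference was not tested.

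Dirigent proteins guide the coupling of phenolic radicals in lignan and lignin formation. AT2G39430 of this family read 16.0 in ppi1, just above the floor, 83.2 in line 75-IV and 44.9 in wild type (-2.38), and AT4G11190 read 35 in ppi1, 91.9 in line 75-IV and 68.6 in wild type (-1.39). Of the 5 measured dirigent genes, 4 lay below the all-gene median and 1 above, AT1G22900 at 0.48. Other genes low in ppi1 were AT2G22510, which encodes a hydroxyproline-rich glycoprotein, with 40.0 in ppi1 and 181 in line 75-IV (-2.18), and AT2G23540, a GDSL-type lipase gene, with 19.1 in ppi1 and 63.6 in line 75-IV (-1.74). The 9 measured GDSL lipases were otherwise spread evenly, with 4 below and 5 above the all-gene median.

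Pectin enzymes went both ways. AT1G60590, a polygalacturonase-type gene, had 18.0 in ppi1, 48.2 in line 75-IV and 14.1 in wild type (-1.42), and the pectate lyase gene AT4G24780 had 252 in ppi1, 514.5 in line 75-IV and 199 in wild type (-1.03). In both genes it was line 75-IV that stood apart, with ppi1 nearer wild type. ATPMEPCRB, a pectin methylesterase, was at 196 in ppi1, 57.0 in line 75-IV and 71.9 in wild type (1.78), and a second probe set gave 1.02. Of the 7 measured members, 5 were below and 2 above the all-gene median.

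Chitinases of family 19 cut chitin, a polymer of fungal walls. AT2G43620 was at 452 in ppi1, 77.5 in line 75-IV and 114 in wild type (2.55), the second-highest ratio of all. AT2G43610, directly beside it in the gene table, was at 68.2 in ppi1, 159 in line 75-IV and 106 in wild type (-1.22). AT2G43590, with 1 protein-coding gene in between, was at 115 in ppi1, 310.1 in line 75-IV and 165 in wild type (-1.43), and CHI of the same cluster at 24.2 in ppi1 and 42.7 in line 75-IV (-0.82). Within 1 run of neighbouring, related genes the mutants thus differed in opposite directions, with wild type between them in each of these 4 genes. A second probe set of AT2G43590 gave -1.92.

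A like split was seen among secreted proteins of the CAP family, to which the pathogenesis marker PR-1 belongs. AT2G19970 read 19.4 in ppi1, 62.9 in line 75-IV and 42.1 in wild type (-1.70), and PR-1-LIKE, with 1 protein-coding gene in between, read 26.8 in ppi1, 15 in line 75-IV and 15 in wild type (0.84). AT4G07820 read 189 in ppi1, 70.8 in line 75-IV and 101 in wild type (1.42). Of the 5 measured CAP genes, 2 lay below and 3 above the all-gene median. The 75-IV signal of PR-1-LIKE was at the edge of the floor.

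Jacalin lectins bind sugars and are found in the complexes of root β-glucosidases. AT1G52100 was at 786 in ppi1, 341.5 in line 75-IV and 233 in wild type (1.20), and AT1G52070, with 1 protein-coding gene in between, was at 47.2 in ppi1 and 71.3 in line 75-IV (-0.60). The root β-glucosidase gene BGLU21, whose product releases coumarins from their glucosides, was at 265 in ppi1, 845 in line 75-IV and 483 in wild type (-1.67). Of the 7 measured lectins, 4 lay below and 3 above the all-gene median. Of 8 measured β-glucosidase and glucosinolate genes, 5 lay below and 3 above that median. BGLU21 alone was past 2-fold, beside 6.26% of all measured genes.

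Small lipid transfer proteins and their relatives carry lipids to the cuticle and the wall. Of 14 measured members, 10 lay below the all-gene median and 4 above; 3 were at least 2-fold lower in ppi1 and 1 at least 2-fold higher, beside 6.26% of all measured genes that were 2-fold apart. The 3 were AT2G44300 with 18.8 in ppi1 and 54.0 in line 75-IV (-1.52), AT2G18370 with 55.2 in ppi1 and 132 in line 75-IV (-1.26), and AT5G46900 with 230.5 in ppi1 and 493 in line 75-IV (-1.10). AT4G22470 read 67.0 in ppi1 and 28.6 in line 75-IV (1.23). The neighbours AT1G62500 and AT1G62510 both had high ratios, 0.85 and 0.92.

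**Figure D3:**
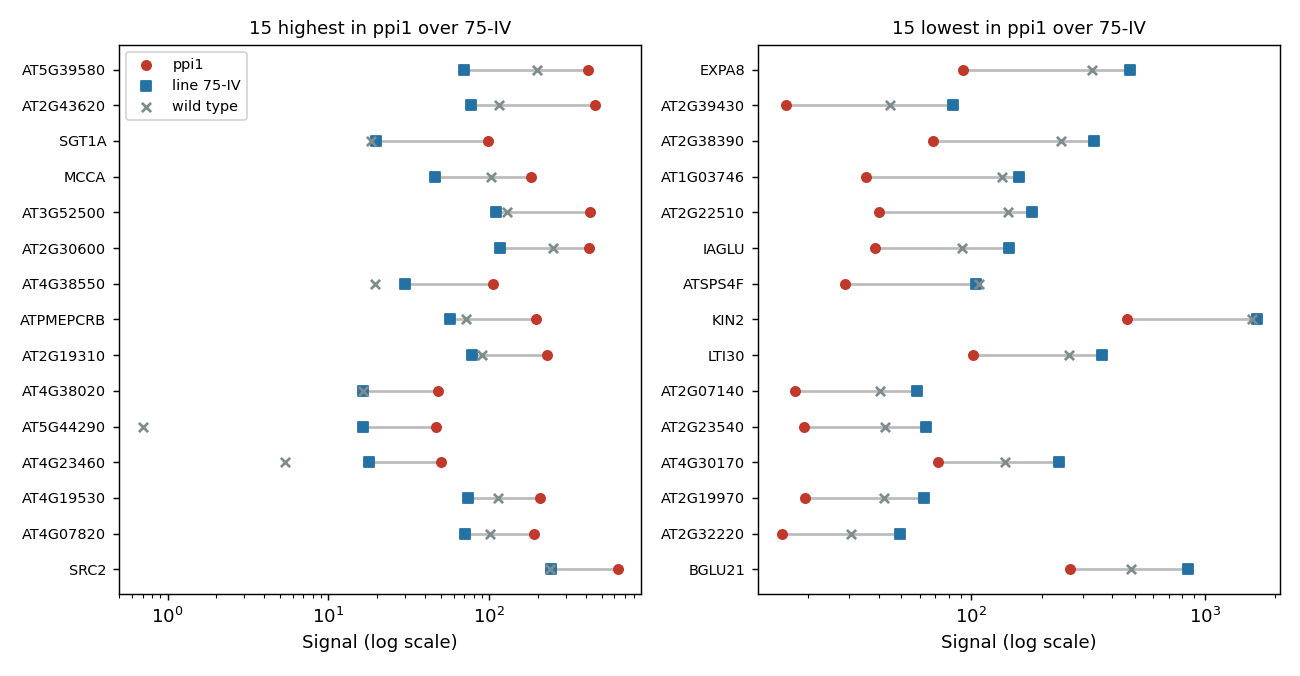
Signals on log axes of the 15 genes with the highest ratio of ppi1 over line 75-IV, left, and the 15 with the lowest, right; circles are ppi1, squares line 75-IV and crosses wild type, 1 array each. On the right EXPA8 heads the list with 91.6 in ppi1 and 479 in line 75-IV, and the wild-type cross lies between or close to the 75-IV square in each row; on the left AT5G44290 and AT4G23460 have wild-type signals of 0.7 and 5.4, below the floor.

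Photosynthesis genes were slightly lower in ppi1 than in line 75-IV under the deposited scaling, a difference that turns round with spike-in scaling, but relative to other genes their median was low in each scaling. All 15 measured genes of the antenna, of the photosystems and electron transport, and of the Calvin cycle and photorespiration lay below the all-gene median. Their median was 0.36 below it, and between 0.22 and 0.36 below it in the 5 scalings. After quantile normalization, and likewise after loess, 11 of the 15 ratios were below 0 and 4 above. 1 of the 15 was 2-fold apart, beside 6.26% of all measured genes. The summed signal of the 15 genes was 32723 in ppi1, 39131 in line 75-IV and 40576 in wild type, so that line 75-IV stood close to wild type. These lists are also the markers of green shoot tissue, and the part of tissue make-up was not tested.

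LHCB4.3, a rarer form of the antenna protein CP29, had 58.9 in ppi1, 174 in line 75-IV and 124 in wild type (-1.56). Its abundant relative LHCB4.1 had 4196 in ppi1 and 4621 in line 75-IV (-0.14), so the 2 forms of the same antenna protein differed in ratio. LHCB4.3 was read by a probe set whose name carries a suffix for possible cross-hybridisation. With probe sets without a suffix, 9 photosynthesis genes remained, 0 of them 2-fold apart. PSAN, a lumenal subunit of photosystem I, had 1629 in ppi1, 3194 in line 75-IV and 3756 in wild type (-0.97). Next came AT1G56190, a phosphoglycerate kinase gene (-0.80), PRK, phosphoribulokinase (-0.56), and SBPASE, sedoheptulose-bisphosphatase (-0.53). RCA, Rubisco activase, had -0.08. The antenna gene LHB1B2 had 0.00 on its brightest probe set and -0.87 on a dimmer one, with 83.3 in ppi1 and 152 in line 75-IV. Saturation of the brightest probe sets was not tested.

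Among genes for the assembly of thylakoid complexes, AT4G02530, which encodes a protein of the thylakoid lumen, had 123 in ppi1, 249 in line 75-IV and 282 in wild type (-1.02). PAM68, an assembly factor of photosystem II, had -0.57 and NdhS, a subunit of the thylakoid NDH complex, -0.48. Of 7 measured genes for thylakoid assembly, 5 lay below the all-gene median and 2 above, and the list's median was 0.52 below that of all genes. Of 7 genes for tetrapyrrole and carotenoid synthesis, 4 lay below and 3 above, from PORB, a protochlorophyllide reductase, at -0.87, to HEMA2, the less active glutamyl-tRNA reductase gene, at 0.59. Of 14 measured plastid proteins outside photosynthesis, 10 lay below and 4 above, and the median was 0.12 below that of all genes. None of the 14 was 2-fold apart, beside 6.26% of all measured genes.

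Among antioxidant and redox genes, which include enzymes that detoxify hydrogen peroxide, 2 of 14 measured members were 2-fold apart, beside 6.26% of all measured genes. SAPX, the stromal ascorbate peroxidase, had 29.2 in ppi1, 86.6 in line 75-IV and 60.5 in wild type (-1.57). GR1, the glutathione reductase of the cytosol and peroxisomes, had 230.5 in ppi1, 567 in line 75-IV and 543 in wild type (-1.30). In GR1 wild type was at the level of line 75-IV, and in SAPX it was between the mutants. The thylakoid ascorbate peroxidase TAPX had -0.46, and the plastid thioredoxin reductase NTRC -0.35. Of the 14 measured genes of antioxidants and redox proteins, 9 lay below the all-gene median and 5 above, with CCS, the copper chaperone of superoxide dismutase, highest at 0.57.

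Cold and dehydration genes ranged widely. KIN2, a cold- and abscisic-acid-induced gene, had 465 in ppi1, 1666 in line 75-IV and 1597 in wild type (-1.84), and a second probe set gave -2.24. LTI30, a dehydrin, had 101 in ppi1, 361 in line 75-IV and 262 in wild type (-1.84). M17, a late embryogenesis abundant gene, had 16.9 in ppi1, 47.7 in line 75-IV and 86.2 in wild type (-1.50). In each of these ppi1 was lowest of the 3 arrays. COR15B, a cold-induced protein of the plastid stroma, was below the floor in ppi1 at 0.7 and reached 29.2 in line 75-IV and 18.3 in wild type.

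The dehydrin gene COR47 had 482 in ppi1, 719 in line 75-IV and 704 in wild type (-0.58), and a second probe set gave -0.12. SRC2, a C2-domain gene, went the other way, with 629 in ppi1, 240.5 in line 75-IV and 238 in wild type (1.39). Among the 13 measured members 8 lay below the all-gene median and 5 above, and the median was 0.22 below that of all genes. In ppi1 3 were at least 2-fold lower and 1 at least 2-fold higher, beside 6.26% of all measured genes that were 2-fold apart. Each of these genes was read by a probe set whose name carries a suffix for possible cross-hybridisation. With probe sets without a suffix, 7 members remained, 0 of them 2-fold lower and 0 higher. Their median was 0.12 below that of all genes.

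Heat shock and chaperone genes lay mostly on the high side in ppi1. SGT1A, a co-chaperone of HSP90 that serves immune receptors, had 98.8 in ppi1, 19.7 in line 75-IV and 18.4 in wild type (2.33). AT2G19310, a gene of the small heat shock protein family, had 229 in ppi1, 78.0 in line 75-IV and 90.1 in wild type (1.56). AT2G29500 of the same family had 33.5 in ppi1 and 18.5 in line 75-IV (0.86). In these genes ppi1 stood above both other arrays. The small heat shock genes AT1G53540 and AT1G54050 were above the floor in ppi1 alone, at 49.3 and 40.0, against 2.3 and 14.1 in line 75-IV.

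The abundant HSP70 gene AT3G09440 differed from these, with 365 in ppi1, 757 in line 75-IV and 416.5 in wild type (-1.05), and here line 75-IV was the array apart. A second probe set of that gene gave -1.39. Of the 9 measured members, 7 lay above the all-gene median and 2 below. The list's median, 0.39 above that of all genes, rested on dim genes: at signals of at least 4 times the floor, 3 members were left, 1 above 0 and 2 below.

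All 7 measured genes for the breakdown of branched-chain amino acids and lysine had ratios above the all-gene median. MCCA, which encodes the biotinylated subunit of the leucine breakdown enzyme methylcrotonyl-CoA carboxylase, had 183 in ppi1, 45.8 in line 75-IV and 102 in wild type (2.00). MCCB, the other subunit of the same mitochondrial enzyme, had 45.3 in ppi1, 23.9 in line 75-IV and 32.1 in wild type (0.92). For both subunits ppi1 was above wild type and line 75-IV below it. AT4G33150, the bifunctional lysine breakdown gene, had 0.73, and ETFQO, which passes electrons from this pathway to ubiquinone, had 0.65.

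AT1G21400, a subunit of branched-chain keto acid dehydrogenase, had 52.0 in ppi1, 37.5 in line 75-IV and 79.8 in wild type (0.47), and ALDH6B2 of valine breakdown had 17.9 in ppi1, 15 in line 75-IV and 27.5 in wild type (0.25). In these 2 genes both mutants were below wild type. The list's median was 0.58 above that of all genes. Beside 6.26% of all measured genes, 1 member, MCCA, was 2-fold apart, read by a probe set with a suffix for possible cross-hybridisation. Without suffixed probe sets 5 members were left, 0 of them 2-fold apart, with a median 0.39 above that of all genes. Most members were dim, and at signals of 4 times the floor AT2G26800, hydroxymethylglutaryl-CoA lyase, was the only one left, at 0.10.

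**Figure D4:**
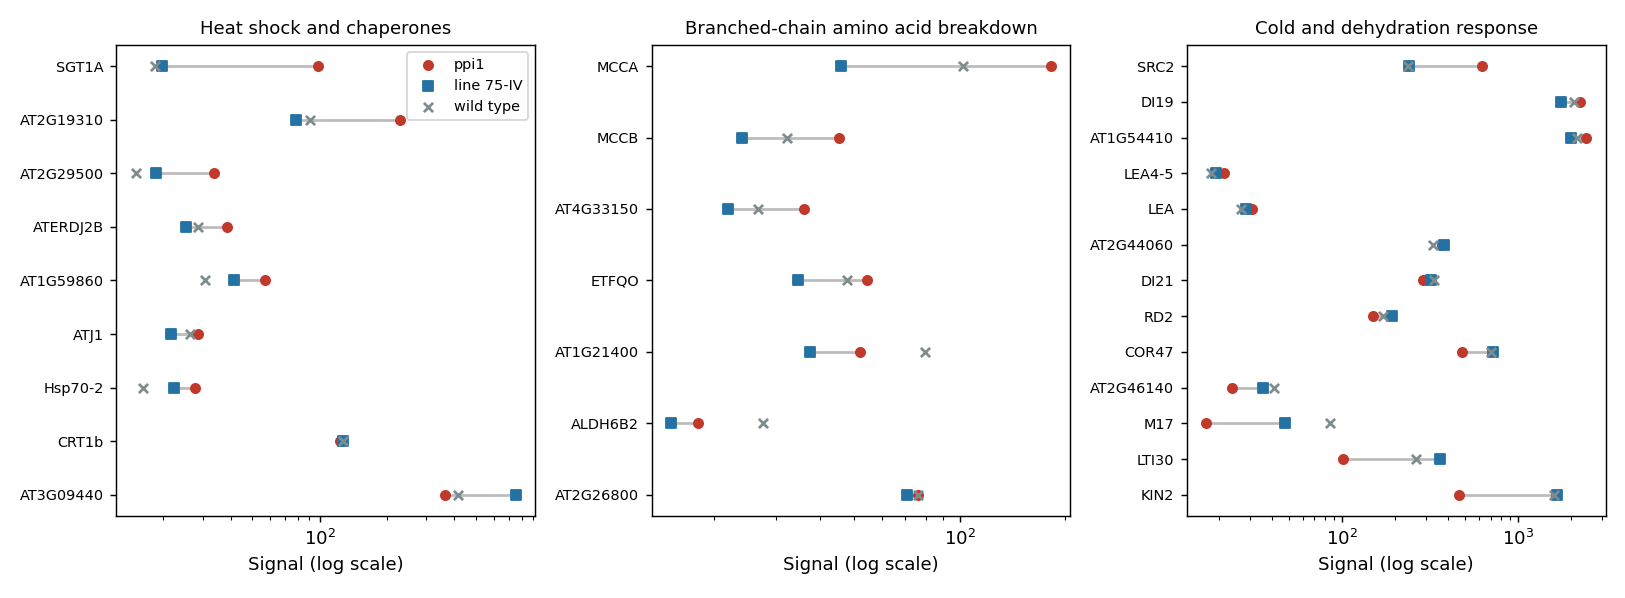
Signals on log axes of the measured genes for heat shock and chaperones, for branched-chain amino acid breakdown and for cold and dehydration, each ordered by the ratio of ppi1 over line 75-IV; circles are ppi1, squares line 75-IV and crosses wild type, 1 array each. In the middle panel all 7 circles lie right of their squares, whereas KIN2, LTI30 and M17 at the foot of the right panel have ppi1 lowest; with spike-in scaling the circles would move right by 0.66 on the log2 scale, and several small differences in the right panel would turn round.

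Genes of ubiquitin conjugation and removal were on the high side as well. SK18, an SKP1-type subunit of ubiquitin ligases, had 97.6 in ppi1, 39.7 in line 75-IV and 27.7 in wild type (1.30). UBC35, a conjugating enzyme, had 241 in ppi1, 123 in line 75-IV and 205 in wild type (0.97). Of 7 measured members 5 lay above the all-gene median and 2 at 0.01 and 0.04, just below it. With the 3 members above the 60th percentile of all signals alone, the list's median was 0.04.

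Among the ATG8 genes, whose products coat autophagosomes, 2 close relatives differed in opposite directions. ATG8F had 313 in ppi1, 675 in line 75-IV and 623 in wild type (-1.11), so ppi1 stood apart. ATG8E had 1707 in ppi1, 858 in line 75-IV and 1733 in wild type (0.99), so line 75-IV stood apart. The other 4 ATG8 genes lay between -0.38 and -0.16. ATG8E was read by a probe set whose name carries a suffix for possible cross-hybridisation. With probe sets without a suffix, 5 ATG8 genes remained, 5 with ratios below 0 and 0 above. The opposite direction thus rested on that 1 probe set.

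Cytosolic ribosomal protein genes showed a small difference across many members. Of 51 measured genes, 47 lay below the all-gene median and 4 above, and the list's median was 0.25 below it. Beside 6.26% of all measured genes, 1 member was 2-fold apart, AT2G32220, a dim gene of the L27 family. It had 15.4 in ppi1, 49.2 in line 75-IV and 30.6 in wild type (-1.68). The remaining 50 lay between -0.98 for AT1G26880 and 0.39 for AT2G34480. These are bright genes, and the median ratio of all genes was 0.03 in the brightest of 4 equal groups of genes by signal and 0.12 in the dimmest. After a loess fit of the ratio on signal, 38 of 51 were below 0 and the list's median was 0.14 below that of all genes. All 9 measured genes of mitochondrial respiration lay below the all-gene median too, from CYTC-1, a cytochrome c, at -0.92, to 0.05.

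In hormone, sugar and secondary metabolism single genes differed. IAGLU, which joins glucose to the auxin indole-3-acetic acid, had 38.6 in ppi1, 144 in line 75-IV and 91.3 in wild type (-1.90), and UGT73B1, another glycosyltransferase, had 28.5 in ppi1, 62.3 in line 75-IV and 27.4 in wild type (-1.13). The other 13 of 15 measured glycosyltransferases lay within 2-fold, where 6.26% of all measured genes were 2-fold apart. ATSPS4F, a sucrose-phosphate synthase, had 28.7 in ppi1, 105 in line 75-IV and 108 in wild type (-1.87), and was the lowest of 9 sugar and starch genes, of which 7 lay above the all-gene median. None of 20 measured transcription factors was 2-fold apart, beside 6.26% of all measured genes. Of the 20, 13 lay above the all-gene median and 7 below. Histone, tubulin and actin genes lay between -0.46 and 0.52, with 5 of 10 on either side of the median.

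**Figure D5:**
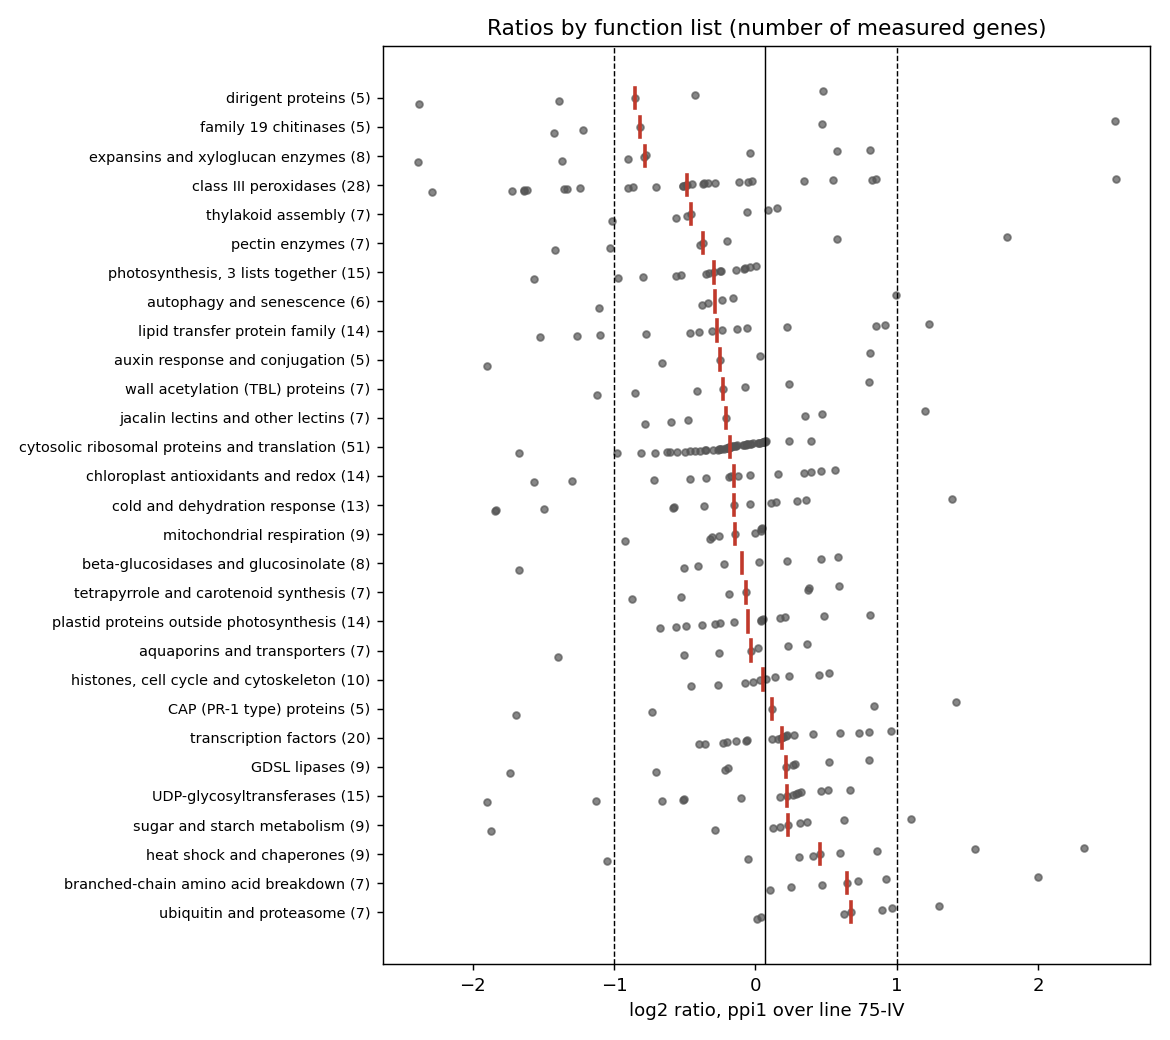
Log2 ratios of ppi1 over line 75-IV for each function list with at least 5 measured genes, 1 point per gene, with the red bar at the list's median, the solid line at the all-gene median of 0.07 and dashed lines at 2-fold. Dirigent proteins (-0.85), family 19 chitinases (-0.82) and expansins (-0.78) have the lowest medians and the ubiquitin list (0.67) the highest. With spike-in scaling each point would move right by 0.66, and many medians below 0 would turn positive. Which genes pass the floor would change too, so not all medians would move by 0.66. The CAP median would go from 0.12 to -0.07.

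The highest ratios outside these lists belonged to genes of varied roles. AT3G52500, an aspartyl protease gene, had 421 in ppi1, 109.5 in line 75-IV and 129 in wild type (1.94). AT2G30600, which encodes a BTB-domain protein, had 419.8 in ppi1, 116 in line 75-IV and 249.5 in wild type (1.86), and AT4G38550 had 106 in ppi1, 30.1 in line 75-IV and 19.4 in wild type (1.82). AT4G19530, an immune receptor gene of the TIR-NBS-LRR class, had 207 in ppi1, 74.3 in line 75-IV and 113 in wild type (1.48). AT4G38020 (1.55), the protein kinase gene AT5G44290 (1.51) and the adaptin gene AT4G23460 (1.48) were dim in line 75-IV, at 16.4, 16.4 and 18.0. Of the 53 higher genes, 19 had a 75-IV signal under 2 times the floor, and of the 65 lower genes, 21 had a ppi1 signal under that limit. Among the lowest ratios, AT1G03746 (-2.18) and AT2G07140 (-1.74) belonged to none of the lists.

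Signals above the floor on 1 mutant array alone were found for 201 genes in ppi1 and 122 genes in line 75-IV, and none of these reached 4 times the floor. The brightest in ppi1 only was NRPE3B, a subunit gene of a plant RNA polymerase, with 58.1 in ppi1, 7.7 in line 75-IV and 18.6 in wild type. The brightest in line 75-IV only were PDF2.1, a defensin, with 1.6 in ppi1, 49.9 in line 75-IV and 24.0 in wild type, and AT4G32240. THI2.1, a thionin induced by jasmonate, read 2.1 in ppi1, 43.6 in line 75-IV and 0.8 in wild type. As limits of the rule, AT2G16630 (1.003) and AT2G24550 (-1.01) lay just past 2-fold, and AT4G02540 (0.999) and AT2G25510 (-0.998) just short of it.

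The wild-type array took no part in choosing these genes, and its signal was placed against those of the mutants. Of the 53 genes at least 2-fold higher in ppi1, wild type lay between the mutants in 38, below both in 15 and above both in 0. Of the 65 genes at least 2-fold lower in ppi1, wild type lay between the mutants in 51, above both in 10 and below both in 4. Together wild type lay between in 89 of 118 genes (75.4%), against 704 of all 1885 measured genes (37.3%). The 118 genes were chosen for a wide gap between the mutants, which encloses the wild-type signal more readily. The higher share is therefore no sign that the mutants moved to opposite sides of wild type. Counted together, the wild-type signal was nearer line 75-IV in 93 of 118 genes (78.8%), against 1205 of all 1885 measured genes (63.9%). In most of the 118 genes ppi1 was thus the array farther from wild type. It was also the array with the most outlier cells. The wild-type array had a GAPDH 3'/5' ratio of 18.7, against 1.61 in ppi1 and 2.42 in line 75-IV. Its mean log2 spike-in signal, 8.18, was also nearer that of line 75-IV (8.36) than that of ppi1 (7.70). The part of these array differences was not tested. The shared arrays allow no test of the share of 78.8%.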

How the data were processed

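Seedling RNA was hybridised to 1 Affymetrix array per group, with 8297 probe sets. The deposited values are scaled signal intensities on a linear scale, 1 per probe set; how they were computed and scaled is not given in the sources used here. They were used as deposited. The 50 control probe sets were left out, the floor was the 40th percentile of the other signals (14.9), and log2 ratios needed both signals above it. The platform annotation named 1 gene for 3794 probe sets and several for 70; probe sets without 1 gene entered no gene result. Of 3602 genes, 3592 were in the RefSeq table of assembly TAIR10.1, used for names and gene order only. No coordinates or sequences are given.

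The 2-fold limit is a rule of size, without a test. The members and lists were chosen with earlier results of these data known. The gene tables hold few descriptions, so keyword lists found few genes. They were extended by locus after the values had been seen, and dirigent, chitinase, CAP, lipid transfer, GDSL lipase, carboxypeptidase, wall acetylation and thylakoid assembly lists were added then; list counts are descriptions and support nothing. Roles of genes shown by locus alone are background knowledge and not taken from the files. Named genes were the 15 highest and 15 lowest ratios, up to 6 per list with the largest ratios, those nearest the floor and the 2-fold limit, and the brightest genes above the floor in 1 mutant. Other named list members were chosen after their values were seen. Of 43 lists, 39 had a measured gene, and 51 of the 118 genes 2-fold apart were in a list. Lists not described in the text had at most 2 genes 2-fold apart or none. Those genes were the serine carboxypeptidases scpl46 (-1.08) and SCPL49 (-1.07), the wall acetylation gene TBL26 (-1.12) and the nitrate transporter AT3G21670 (-1.40). The genes ICL and OLEO3, which made up the seed reserve list, were below the floor on all arrays.

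Alternatives were median centring, quantile normalization, loess (span 0.4), spike-in scaling, floors at the 20th and 60th percentile, 4 times the floor, the median ratio of a gene's probe sets, unsuffixed probe sets only and limits of 1.5-fold and 3-fold. The brightest probe set over all 3 arrays was added after seeing the data. The scripts were run on simulated arrays with known changes to check their arithmetic; this bears on no difference reported. Python 3.11.15, pandas 2.3.3, numpy 2.4.6 and statsmodels 0.14.6 were used.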

Additional observations from a re-analysis of the deposited data

How the results depend on the processing

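No paired analysis was possible because each group had 1 array, and for the same reason no array could be left out. Of the 118 genes, 107 stayed 2-fold apart with median centring, 109 with quantile normalization, 104 with loess and 59 with spike-in scaling, which left 109 of them measured. The counts of higher and lower genes in ppi1 were 469 and 17 with spike-in scaling, 156 and 111 with the floor at the 20th percentile, 28 and 34 at the 60th, 22 and 28 at 4 times the floor, 272 and 192 at 1.5-fold and 8 and 19 at 3-fold. With the brightest probe set over all 3 arrays they were 52 and 66. Counts under the other alternatives stayed within 1.5 times.

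With spike-in scaling, which adds 0.66 to each ratio by construction, the median log2 ratio was 0.70 for all measured genes, 0.37 for photosynthesis, 0.21 for thylakoid assembly, 0.59 for tetrapyrroles and carotenoids, 0.51 for other plastid proteins, 0.51 for antioxidants, 0.17 for peroxidases, -0.12 for expansins, 0.27 for pectin enzymes, -0.46 for dirigent proteins, -0.16 for chitinases, 0.39 for lipid transfer proteins, 0.45 for lectins, 0.51 for cold and dehydration, 1.09 for heat shock, 1.35 for amino acid breakdown, 0.37 for ATG8 genes, 0.48 for ribosomal proteins, 0.88 for glycosyltransferases, 0.83 for transcription factors, 1.34 for ubiquitin, 0.86 for sugar and starch and -0.07 for CAP proteins. At 4 times the floor, with fewer genes, medians were -0.71 for pectin enzymes, -1.22 for chitinases, 1.42 for CAP proteins, 0.47 for lectins, -0.050 for heat shock, 0.10 for amino acid breakdown, -0.13 for transcription factors, -0.26 for thylakoid assembly, -0.095 for lipid transfer proteins and 0.038 for other plastid proteins. With the floor at the 60th percentile they were -0.38 for chitinases, 1.42 for CAP proteins, 0.41 for lectins, 1.05 for amino acid breakdown, 0.038 for other plastid proteins and 0.038 for ubiquitin. With the floor at the 20th percentile the medians were -0.31 for CAP proteins and 0.07 for lectins; without suffixed probe sets they were -0.17 for chitinases and 0.15 for tetrapyrroles and carotenoids. The CAP median was -0.0058 with quantile normalization and -0.0079 with loess. Spike-in scaling also changed which genes passed the floor, so some list medians, such as that of the CAP proteins, did not move by 0.66. The medians of the peroxidase, expansin, photosynthesis and ribosomal lists stayed below that of all genes in each alternative, and that of the dirigent list in those where it was measured, which leaves out the floor at the 60th percentile and 4 times the floor. Dim signals are a limit, since 40 of the 118 genes had a signal under 2 times the floor in the mutant where they were lower.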
